A study of Homo sapiens with 8 samples.

Results

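The metallothionein genes MT1A, MT1E, MT1F, MT1G, MT1H, MT1M, MT1X and MT2A were followed across all 8 arrays of a study that lowered TRIM44, a tripartite motif protein, in HSC39 cells. HSC39 is an established human gastric cancer line of signet ring type. The family was chosen by measured values of these data, taken here to be the difference of MT1H between TRIM44 siRNA and negative siRNA, since the contrast used is not stated. Its members were the probe sets whose single annotated symbol was 1 of the 8 genes. This gave 7 genes of 18404 measured, with 8 probe sets of the 19158 that carried exactly 1 symbol and of 32321 in all. MT2A had 2 probe sets, called 1 and 2 by mean level, and MT1A, with no such probe set, was not analysed here. Of the arrays, 2 were of cells transfected with TRIM44 siRNA 7, 2 of cells with TRIM44 siRNA 9 and 4 of cells with a negative control siRNA (All stars). The labels give 100 nm of TRIM44 siRNA for 48 h, and that protocol text is attached to the negative samples as well. By the series' own count, siRNA 7 and siRNA 9 together make up 4 biological replicates of a single condition. Whether each array had its own culture is not said beyond that, and every p-value reflects only how far these arrays spread, possibly for technical reasons.

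Metallothioneins are small cysteine-rich proteins that hold zinc, copper and cadmium in thiolate clusters and buffer the free zinc of the cell. Their human genes sit side by side on chromosome 16, and most respond to metals through MTF1, a zinc-sensing transcription factor that binds metal response elements in their promoters. Glucocorticoids and oxidative stress also raise several of them, MT2A and MT1X among them. In the stomach and intestine they are made by epithelial cells, which import and export zinc through the SLC39 and SLC30 transporter families.

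The promoters of MT2A, MT1H and MT1X are shown because the members were all highest on the same array, negative array 1. These are the 3 of the 8 genes with an entry in the RefSeq promoter table (build GRCh38.p14). Each line gives the 250 bases before the annotated start on the plus strand, at chr16:56608334-56608583 for MT2A, chr16:56669564-56669813 for MT1H and chr16:56682220-56682469 for MT1X. Capitals mark the core of the metal response element, TGCACNC or TGCGCNC on either strand.
MT2A: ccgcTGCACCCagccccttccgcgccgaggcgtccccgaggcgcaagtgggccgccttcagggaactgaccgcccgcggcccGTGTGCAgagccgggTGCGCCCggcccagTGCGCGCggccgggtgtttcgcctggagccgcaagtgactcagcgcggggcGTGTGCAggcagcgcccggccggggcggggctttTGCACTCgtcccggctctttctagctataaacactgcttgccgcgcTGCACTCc
MT1H: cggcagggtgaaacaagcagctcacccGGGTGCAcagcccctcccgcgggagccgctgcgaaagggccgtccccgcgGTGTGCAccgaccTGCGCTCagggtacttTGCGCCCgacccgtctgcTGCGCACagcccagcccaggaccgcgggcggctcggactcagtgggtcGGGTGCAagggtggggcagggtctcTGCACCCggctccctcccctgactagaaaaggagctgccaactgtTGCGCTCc
MT1X: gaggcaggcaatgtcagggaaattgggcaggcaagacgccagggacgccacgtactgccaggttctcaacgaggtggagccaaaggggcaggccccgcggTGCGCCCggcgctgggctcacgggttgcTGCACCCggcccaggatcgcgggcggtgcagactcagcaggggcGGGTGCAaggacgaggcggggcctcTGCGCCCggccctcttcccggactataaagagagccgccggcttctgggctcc
The window held 7 cores in MT2A, 8 in MT1H and 4 in MT1X. Of 35114 promoter windows of the same length, 24.8% held at least 1 core, 0.37% held 4 or more, 0.0313% held 7 or more and 0.0171% held 8 or more. The TATA box letters TATAAA, searched on both strands, were found from position -29 in MT2A and from position -30 in MT1X, counted from the start, and in 10.7% of all windows. The MT1H window did not hold these letters. The GC box letters GGGCGG, also on both strands, occurred 2 times in MT2A, 1 time in MT1H and 2 times in MT1X, and in 42.6% of all windows. One of the GC boxes of MT1X, at positions -82 to -77, overlapped a core at -78 to -72, and the other matches overlapped no core. MT1B and MT4, the other metallothionein genes with an entry, held 3 cores each. A match is a description of the letters and not evidence that a factor binds there. Whether the motifs bear on the height of negative array 1 was not tested.

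**Figure D1:**
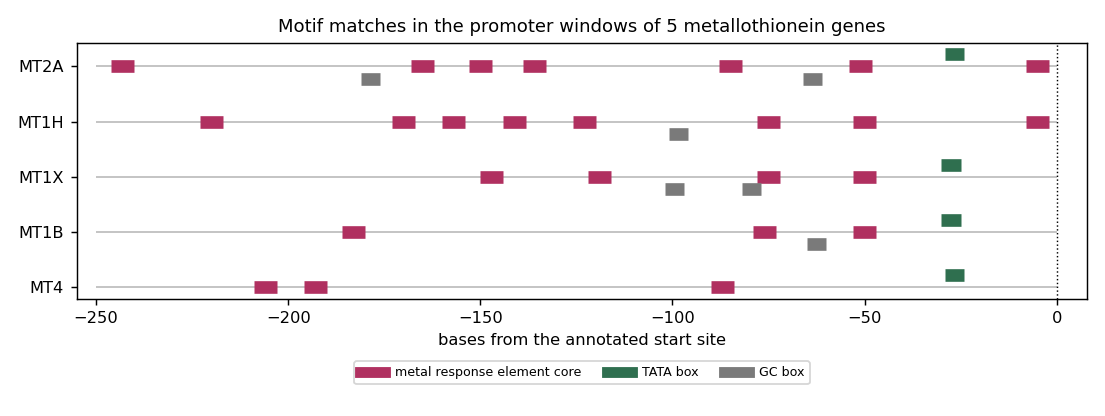
Matches of the metal response element core, the TATA box and the GC box in the 250 bases before the annotated start of 5 metallothionein genes, by distance from the start. MT1H held 8 cores, MT2A 7, MT1X 4, and MT1B and MT4 3 each.

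TRIM44, the target, stood lower on all siRNA arrays than on all negative arrays. It was at 10.85 and 11.27 (log2) with siRNA 7 and 11.10 and 11.14 with siRNA 9, against 11.91, 12.02, 11.91 and 11.77 with negative siRNA, a difference of -0.81 (SE 0.10) that lay between -0.87 and -0.73 whichever array was left out. Array medians lay between 6.78 and 6.87, and the largest gap between arrays at the same rank was 0.18. Of the epithelial marker genes 0 of 11 passed the threshold for TRIM44 siRNA (limma, adjusted p under 0.05 over all probe sets with 1 symbol), from CDH1, the adhesion protein of epithelia, at -0.23 to the trefoil peptide gene TFF1 at 0.10. EPCAM, a surface marker of epithelia, averaged 12.48 ± 0.05 in TRIM44 siRNA cells and 12.38 ± 0.14 in negative siRNA cells (SD, n = 4 each). Among markers of fibroblasts, leukocytes and endothelium 0 of 11 passed, from the endothelial gene VWF at -0.10 to the collagen gene COL3A1 at 0.06, and PTPRC, of leukocytes, averaged 4.21 ± 0.12 in TRIM44 siRNA cells and 4.25 ± 0.12 in negative siRNA cells (SD, n = 4 each). In limma 1 epithelial marker and 0 of the others had an unadjusted p under 0.05, as had 1041 of all 19158 probe sets. Signal over background is not given, so a dim probe set could not be told from an absent transcript. The number of arrays limits the precision.

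With TRIM44 siRNA all 8 metallothionein probe sets had a lower mean than with negative siRNA, and MT1H was the only member whose siRNA arrays all lay below the negative arrays. Since this comparison is taken to have chosen the family, its differences are a description, with no test, and nothing is read from its counts. The fit over 19158 probe sets called 0.00522% of them at an adjusted p under 0.05, which is TRIM44 itself (adjusted p = 0.0449), and 46.3% had a difference below 0. The TRIM44 call ended after median centring (adjusted p = 0.108), with all probe sets tested (0.442) and without siRNA 7 array 1 (0.0929), siRNA 9 array 1 (0.209) or 2 (0.199), or negative array 1 (0.291), 2 (0.0587), 3 (0.285) or 4 (0.103). The member differences ran from -0.49 to -0.05 on the log2 scale with a median of -0.15, where the median over all probe sets was 0.01 and the middle 50% lay between -0.06 and 0.07. As these are bulk samples, fewer cells with the transcript and less of it per cell cannot be told apart. Close paralogs may share signal on 1 probe set, and how far they do was not tested.

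MT1H, a zinc-binding isoform encoded near the MT1X end of the cluster, was at 8.72 and 9.05 with siRNA 7 and 8.93 and 8.78 with siRNA 9. With negative siRNA it was at 9.65, 9.25, 9.28 and 9.27. Thus all 4 siRNA arrays lay below all 4 negative arrays, as held for 1.26% of all probe sets. Its mean was 8.87 ± 0.15 in TRIM44 siRNA cells and 9.36 ± 0.19 in negative siRNA cells (SD, n = 4 each), a difference of -0.49 (SE 0.11) or 71.1% of the level with negative siRNA. Of all probe sets, 0.157% had a lower difference. The family is taken to have been chosen by this difference of MT1H, so this share and the 1.26% restate the choice. By reagent the difference was -0.48 (SE 0.13) with siRNA 7 and -0.51 (SE 0.13) with siRNA 9. These are the parts of the pooled difference, set against the same 4 negative arrays. The siRNA 7 value was -0.31 without its array 1 and -0.64 without its array 2. Negative array 1 was the highest by far, and without it the difference was -0.40 for both reagents together, -0.38 for siRNA 7 and -0.41 for siRNA 9. The groups stay apart by construction when the highest negative array is left out.

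**Figure D2:**
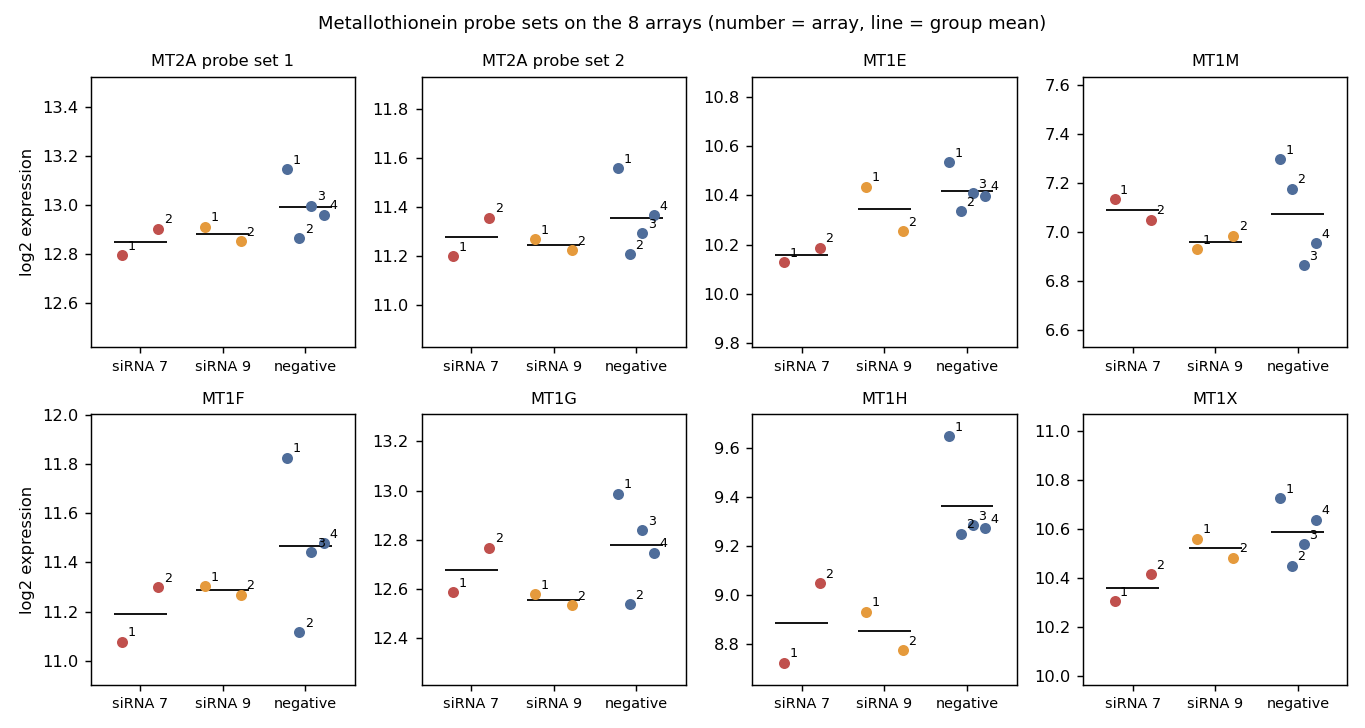
Log2 expression of each metallothionein probe set on each array, with siRNA 7, siRNA 9 and negative siRNA from left to right; points are arrays, numbers are replicate numbers and lines are group means. All panels span the same log2 range. MT1H is the panel in which all siRNA arrays lie below all negative arrays, and negative array 1 is the highest point in every panel.

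MT2A, the most widely expressed human isoform, overlapped between groups on both of its probe sets. On probe set 1 the siRNA 7 arrays had 12.80 and 12.90 and the siRNA 9 arrays 12.91 and 12.85, against 13.15, 12.87, 12.997 and 12.96 on the negative arrays. The lowest negative array, array 2, lay inside the range of the siRNA arrays. Probe set 2 had 11.20 and 11.36 with siRNA 7 and 11.27 and 11.23 with siRNA 9, against 11.56, 11.21, 11.29 and 11.37 with negative siRNA. The differences for TRIM44 siRNA were -0.13 (SE 0.08) on probe set 1 and -0.09 (SE 0.09) on probe set 2. Without negative array 1 they were -0.07 and -0.03, and without negative array 2 that of probe set 2 was -0.14.

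MT1E, the next member after MT2A along the chromosome, had 10.13 and 10.19 with siRNA 7 and 10.43 and 10.25 with siRNA 9, against 10.53, 10.33, 10.41 and 10.40 with negative siRNA. Both siRNA 7 arrays lay below all negative arrays, while siRNA 9 array 1 lay above 3 of them. The difference was -0.26 (SE 0.10) with siRNA 7 and -0.07 (SE 0.10) with siRNA 9. Leaving out 1 siRNA 9 array moved the siRNA 9 value to -0.16 (without array 1) and to 0.02 (without array 2), and without negative array 1 it was -0.04.

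MT1M showed no common direction. It had 7.13 and 7.05 with siRNA 7 and 6.93 and 6.98 with siRNA 9, against 7.30, 7.18, 6.87 and 6.95 with negative siRNA. The negative arrays spanned both reagents, and the difference of -0.05 (SE 0.10) for TRIM44 siRNA lay between -0.12 (without negative array 3) and 0.03 (without negative array 1) with 1 array left out. Its siRNA 7 difference of 0.02 (SE 0.12) had no stable sign, at -0.05 without negative array 3 and 0.09 without negative array 1, and its siRNA 9 difference was -0.11 (SE 0.12).

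MT1F and MT1G, neighbours in the cluster, were spread widely on the negative arrays. MT1F had 11.08 and 11.30 with siRNA 7 and 11.30 and 11.27 with siRNA 9, against 11.83, 11.12, 11.44 and 11.48 with negative siRNA. Its negative arrays thus reached from near the lowest siRNA array to far above the highest, and the difference of -0.23 (SE 0.13) was -0.11 without negative array 1 and -0.35 without negative array 2. MT1G had 12.59 and 12.77 with siRNA 7 and 12.58 and 12.53 with siRNA 9, against 12.99, 12.54, 12.84 and 12.75 with negative siRNA. The siRNA 9 arrays lay at the level of negative array 2, and siRNA 7 array 2 lay above negative arrays 2 and 4. The difference of MT1G was -0.16 (SE 0.10), and -0.09 without negative array 1.

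MT1X, the last member along the chromosome, resembled MT1E in the order of its groups. It had 10.31 and 10.42 with siRNA 7 and 10.56 and 10.48 with siRNA 9, against 10.73, 10.45, 10.54 and 10.64 with negative siRNA. Both siRNA 7 arrays lay below all negative arrays, and both siRNA 9 arrays lay within their range. The difference was -0.23 (SE 0.10) with siRNA 7 and -0.07 (SE 0.10) with siRNA 9. Leaving out negative array 1 brought the siRNA 9 value to -0.02 and leaving out negative array 2 to -0.11, while it was -0.10 if array 1 of siRNA 9 was dropped and -0.03 if array 2 was.

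Counted by reagent, 7 of 8 probe sets had a negative difference with siRNA 7 (median -0.19) and 8 of 8 with siRNA 9 (median -0.11), where 50.7% and 43.5% of all probe sets did. Both siRNA 7 arrays lay below all negative arrays for 3 of 8 probe sets, those of MT1E, MT1H and MT1X, against 7.99% of all probe sets. Both siRNA 9 arrays did so for 1 of 8, MT1H, against 9.23% of all probe sets. These counts rest on negative array 2, the lowest negative array for every member but MT1M. Without it the siRNA arrays of both reagents lay below all remaining negative arrays for 3 of 8 probe sets in place of 1 (4.12% of all probe sets), those of siRNA 7 for 5 (14.6%) and those of siRNA 9 for 5 (17.0%). Without siRNA 7 array 2 the siRNA 7 count was 6 (16.2% of all probe sets). Without siRNA 9 array 1 the siRNA 9 count was 4 (21.3%) and that of both reagents 2 (2.6%). These shares rise with fewer arrays by construction. The 2 comparisons are the parts of the pooled comparison that is taken to have chosen the family. Their counts are therefore a description, and nothing is read from them or from the shares beside them. Both comparisons also use the same negative arrays, and the fits called 0.0679% of all probe sets for siRNA 7 and 0.924% for siRNA 9.

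**Figure D3:**
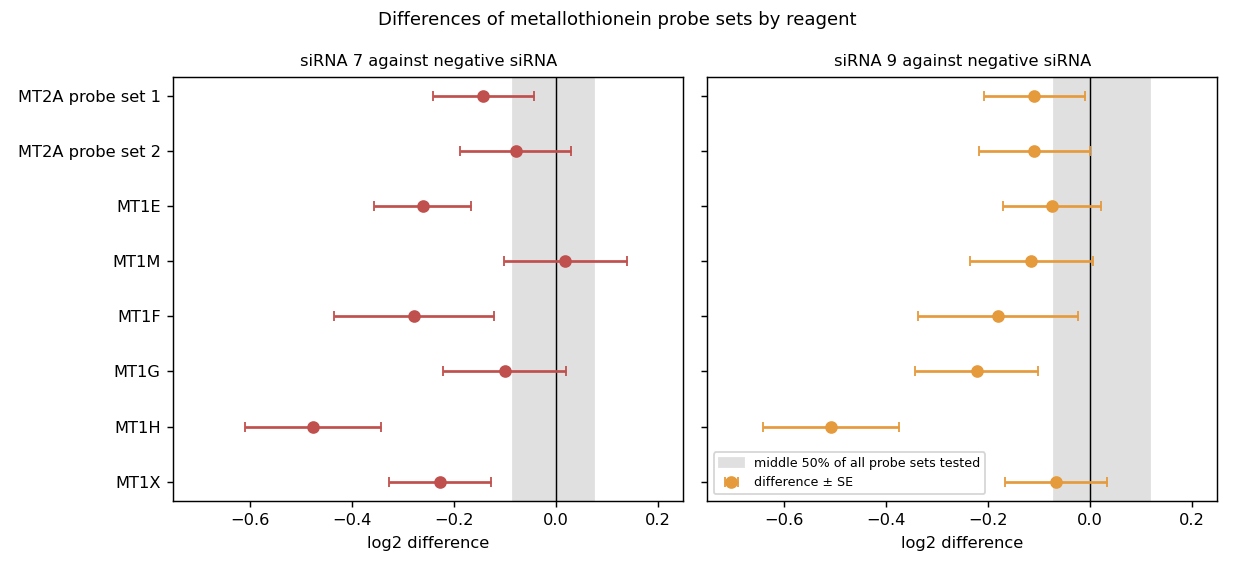
Log2 difference from negative siRNA of each metallothionein probe set for siRNA 7 (left) and siRNA 9 (right); points are the fitted differences, bars their SE, and the grey band holds the middle 50% of all 19158 probe sets. MT1H stands at -0.48 and -0.51, and MT1E and MT1X lie farther from 0 with siRNA 7 (-0.26 and -0.23) than with siRNA 9 (-0.07 for each).

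The difference between the reagents was tested, on the reading that the pooled contrast chose the family, which this difference does not use. Of the 8 probe sets 0 passed (limma, adjusted p from 0.469 to 0.960 over 19158 probe sets), while 2.23% of all probe sets did. In limma 0 of the 8 and 3015 of all 19158 had an unadjusted p under 0.05. The differences of siRNA 7 minus siRNA 9 ran from -0.19 to 0.13, with 4 of 8 below 0, as 56.7% of all probe sets were, and a median of -0.00, against -0.03 over all probe sets. For MT1E, whose mean was 10.16 ± 0.04 in siRNA 7 cells and 10.34 ± 0.13 in siRNA 9 cells (SD, n = 2 each), the difference was -0.19 (95% interval -0.43 to 0.05, limma adjusted p = 0.469). For MT1X it was -0.16 (95% interval -0.41 to 0.09) and for MT1H 0.03 (95% interval -0.30 to 0.37).

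The members shared a trait that the siRNA labels do not give, a high value on negative array 1. Negative array 1 was the highest of the 8 arrays for 8 of 8 metallothionein probe sets, as it was for 10.2% of all probe sets, which is a description with no test. The comparison taken to have chosen the family uses this array, and a choice by lower siRNA values favours a high negative array. Probe sets of close paralogs may also share signal, so nothing is read from the 10.2%. Each member was set to its own mean over the 8 arrays, and the mean of the 8 members was then 0.30 on negative array 1. It was -0.05, 0.05 and 0.06 on negative arrays 2, 3 and 4, -0.17 and -0.03 on the siRNA 7 arrays and -0.05 and -0.12 on the siRNA 9 arrays. Over all probe sets the median of such centred values on negative array 1 was 0.00, so the middle of that array was not shifted. Negative array 2, by the same measure, stood at the level of siRNA 7 array 2 and siRNA 9 array 1. Beyond negative array 1 the members were less alike. MT1M stood at 0.13 and -0.18 on negative arrays 2 and 3, where the mean was -0.05 and 0.05. The Pearson r of a probe set with the member mean, which contains it, was 0.37 for MT1M over the 8 arrays. For the other members it ran from 0.82 (MT1E) to 0.98 (MT2A probe set 1).

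The height of negative array 1 differed between members. Against the mean of the other 3 negative arrays it was higher by 0.48 for MT1F, 0.38 for MT1H, 0.30 for MT1M, 0.28 for MT1G, 0.27 and 0.20 for MT2A probe sets 2 and 1, 0.18 for MT1X and 0.15 for MT1E. The median over all probe sets was 0.00, and the 5th and 95th percentiles were -0.26 and 0.23. Without negative array 1 the member median for TRIM44 siRNA was -0.10 in place of -0.15, and 7 of 8 differences were below 0. The median was -0.12 in place of -0.19 for siRNA 7, with 7 of 8 below 0, and -0.05 in place of -0.11 for siRNA 9, with 8 of 8 below 0. The part of culture, RNA or array handling in this height was not tested.

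**Figure D4:**
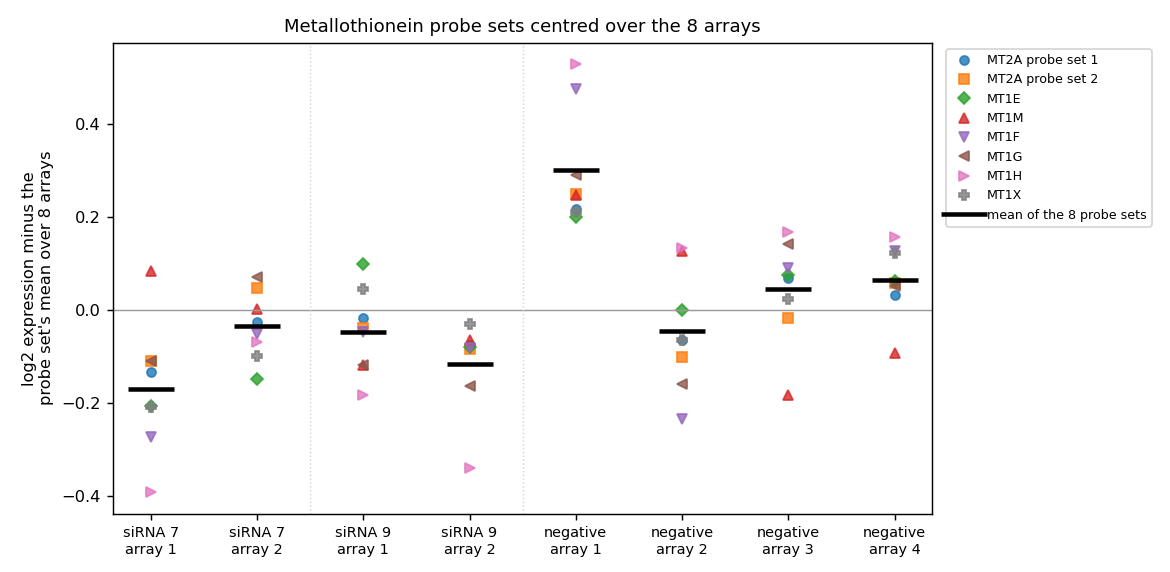
Log2 expression of each metallothionein probe set minus its own mean over the 8 arrays, by array, from siRNA 7 through siRNA 9 to negative siRNA; each symbol is a probe set and each bar the mean of the 8 probe sets. All 8 lie above 0 on negative array 1 (mean 0.30) and below 0 on siRNA 9 array 2 (mean -0.12).

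Within the 3 groups the members spread about as much as other probe sets. Their pooled SD ran from 0.09 for MT1E to 0.24 for MT1F with a median of 0.14, where the median of all probe sets was 0.12 and the middle 50% lay between 0.09 and 0.16. Of all probe sets 94.6% had a smaller SD than MT1F and 84.3% a smaller SD than MT1H. The spread of MT1E was larger than that of 22.2% of all probe sets. Thus the members of the family ranged from tight to wide, and negative array 1 set the upper end in each.

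Outside the family, the genes whose values over the 8 arrays correlated best with the member mean were the transcriptional corepressor gene SKOR1 (Pearson r = 0.98 over 8 arrays), the synaptic scaffold gene SHANK2 (0.96), NEXN, which encodes an actin-binding protein (0.95), HERPUD2 (0.95) and SLC26A5, the gene of the hair cell motor protein prestin (0.94). These were picked as the highest of all genes, so r is a description. Without negative array 1 the values were 0.95, 0.90, 0.84, 0.86 and 0.78. SKOR1 had 7.64 and 7.73 with siRNA 7 and 7.73 and 7.69 with siRNA 9, against 7.94, 7.70, 7.76 and 7.82 with negative siRNA, so it too was highest on negative array 1, and its groups overlapped.

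The other metallothionein genes and pseudogenes also lay below 0 for TRIM44 siRNA, and none passed the threshold. Of 10 listed, 7 had a probe set with 1 symbol, and 0 of 7 passed in any of the 4 comparisons. All 7 differences were negative, as were 46.3% of all probe sets, from MT1DP at -0.14 (SE 0.09) to MT1JP at -0.03 (SE 0.09), with a median of -0.07. By reagent 7 of 7 were below 0 with siRNA 7 and 5 of 7 with siRNA 9, as were 50.7% and 43.5% of all probe sets. These probe sets may take up signal of the members, which was not tested. For 6 of 7 negative array 1 was the highest negative array, as for 19.3% of all probe sets, and the exception was MT3, the isoform known from brain, at 8.18 on negative array 1 and 8.24 on negative array 4. The genes that flank the cluster had differences on both sides of 0. Of 8 measured neighbours 0 passed, their median was 0.03, and negative array 1 was the highest negative array for 3, as for 19.3% of all probe sets. They ran from OGFOD1, a prolyl hydroxylase gene, at -0.03 to NUDT21, of the mRNA 3' end machinery, at 0.14.

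In the list of MTF1 and the SLC30 zinc exporters 0 of 11 passed for TRIM44 siRNA, with a median of 0.11. Of the 11, 8 lay above 0 and 3 below, where 46.3% of all probe sets lay below. MTF1 averaged 9.97 ± 0.10 in TRIM44 siRNA cells and 9.72 ± 0.07 in negative siRNA cells (SD, n = 4 each), a difference of 0.25 (limma adjusted p = 0.800). It had 9.94 and 10.11 with siRNA 7 and 9.94 and 9.88 with siRNA 9, against 9.62, 9.78, 9.75 and 9.72 with negative siRNA. SLC30A1, the zinc exporter of the plasma membrane and itself an MTF1 target, averaged 9.21 ± 0.16 in TRIM44 siRNA cells and 9.02 ± 0.01 in negative siRNA cells (SD, n = 4 each), a difference of 0.20 (adjusted p = 0.912). Its arrays had 9.07 and 9.44 with siRNA 7 and 9.16 and 9.18 with siRNA 9, against 9.03, 9.02, 9.00 and 9.02 with negative siRNA. For MTF1 and SLC30A1 all siRNA arrays thus lay above all negative arrays. How often this held over all probe sets was not counted, so nothing is read from it, and neither gene passed the threshold. SLC30A3, of synaptic vesicles, had the lowest difference at -0.13.

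Among the SLC39 zinc importers 0 of 14 passed for TRIM44 siRNA (median 0.00), from SLC39A9 at -0.25 to SLC39A6 at 0.25. With siRNA 9 alone SLC39A9, a zinc transporter of the Golgi, was called and fell by 0.46 (SE 0.09, limma adjusted p = 0.0391). It had 10.53 and 10.56 with siRNA 9, against 10.94, 11.01, 11.14 and 10.96 with negative siRNA, and 10.95 and 10.98 with siRNA 7. The difference between the reagents did not pass (0.42, adjusted p = 0.0626), though it did with the upper 50% of probe sets, the trended prior, array weights or negative array 2 left out. Of the copper genes 0 of 11 passed (median -0.00), with the copper chaperone gene of superoxide dismutase, CCS, at -0.16 and the copper transporter gene SLC31A2 at 0.22.

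Stress and hormone genes that can act on metallothioneins gave a single other call. Of the glutathione and thioredoxin genes 0 of 13 passed (median 0.02), from the cystine transporter gene SLC7A11 at -0.39 to GCLM, of glutathione synthesis, at 0.15. Of the heat shock genes 0 of 9 passed (median 0.05), from the chaperone gene HSP90AA1 at -0.09 to the co-chaperone gene DNAJB1 at 0.39. Among the glucocorticoid receptor and its targets (9 measured, median 0.08), 0 passed for TRIM44 siRNA, and TSC22D3, which encodes the glucocorticoid-induced leucine zipper, had -0.19. SGK1, a kinase gene of that list, rose with siRNA 9 by 0.56 (SE 0.09, limma adjusted p = 0.0182). It had 7.01 and 6.97 with siRNA 9, against 6.39, 6.52, 6.36 and 6.44 with negative siRNA, and 6.55 and 6.39 with siRNA 7. The siRNA 7 minus siRNA 9 difference of SGK1 was -0.52 (SE 0.11, adjusted p = 0.0315).

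In all, these 8 lists, from the other metallothioneins to the heat shock genes, held 82 measured genes. In the limma fits 1041 of all 19158 probe sets had an unadjusted p under 0.05 for TRIM44 siRNA, 1430 for siRNA 7 and 2608 for siRNA 9. For TRIM44 siRNA and for siRNA 7 limma called 0 of the 82 genes, with 8 and 9 at such a p. For siRNA 9 it called 2, SGK1 and SLC39A9, with 11 at such a p. The siRNA 9 calls of both ended without siRNA 9 array 1, siRNA 9 array 2, negative array 1 or negative array 3, and that of SLC39A9 ended also without siRNA 7 array 1, siRNA 7 array 2 or negative array 4. The reagent call of SGK1 ended without siRNA 7 array 1 or 2, siRNA 9 array 1 or 2, or negative array 3. Without siRNA 7 array 1 TSC22D3 was called there in its place. With all 32321 probe sets tested these 3 calls ended as well, and with only the arrays compared that of SLC39A9 did.

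**Figure D5:**
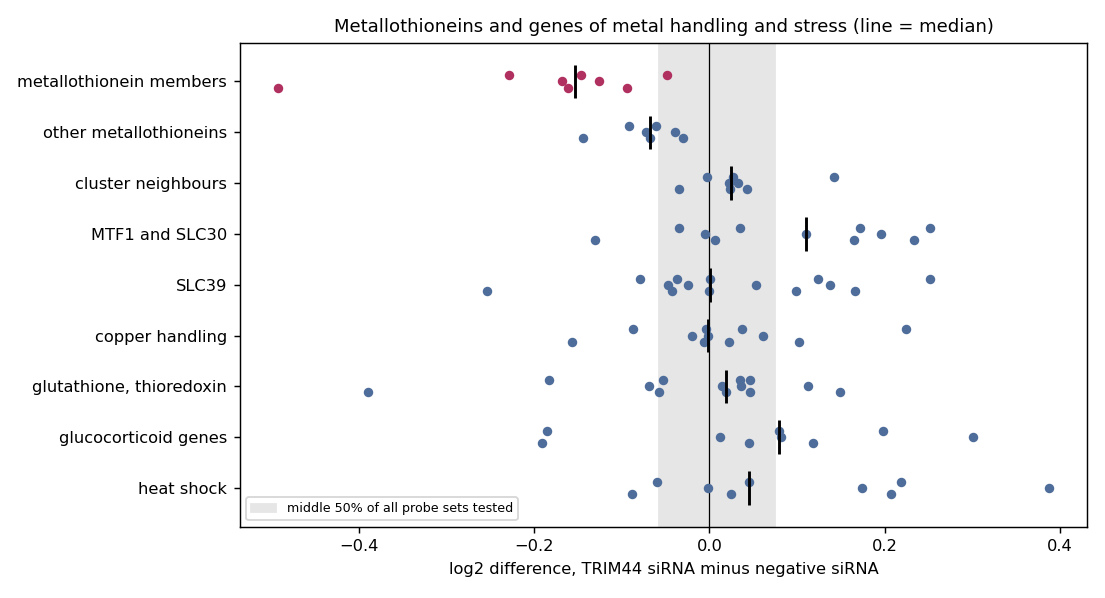
Log2 difference of TRIM44 siRNA minus negative siRNA for the 8 metallothionein probe sets (top) and for the genes of 8 lists, 1 point per gene; vertical lines are medians and the grey band holds the middle 50% of all probe sets. The members have a median of -0.15, the other metallothioneins -0.07, and MTF1 with the zinc exporters 0.11.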

How the data were processed

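RNA of 8 samples was hybridised to Affymetrix whole-transcript arrays. Per the submitters' processing notes the authors used limma, and their deposited values are on the log2 scale, with a single value for a probe set on an array. Sorted values of the arrays differed by at most 0.180, so a common distribution was nearly reached before deposit; how, and on which build, is not stated in the sources used here. Symbols came from the platform annotation and were matched by gene ID to RefSeq (19128 found, 0 changed). Probe sets with several symbols (1388) or none (11775) were left out.

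Both reagents pooled were set against negative siRNA in limma with 2 groups, and each reagent in limma with 3 group means, over the 19158 probe sets with 1 symbol. Tests were 2-sided, with Benjamini-Hochberg adjustment and a threshold of 0.05. Members have no p in contrasts with negative siRNA. Members and lists were chosen with earlier results of these data known. The text names all members, TRIM44, MTF1, SLC30A1, list genes past the threshold, the extremes of a list with fewer than 2 such genes, and the 5 genes of highest correlation with the member mean; EPCAM, PTPRC and MT3 were added after their values were seen. Outside the family the brightest probe set stood for a gene. The alternatives were: quantile normalization; medians set equal; the brighter 50% of probe sets; every probe set; a trended, robust prior; weights per array; replicate numbers as a block; group means in place of pooling; comparing only the arrays concerned; and each array left out. Recounting members below 0, or any probe sets below all negative arrays, under alternatives was chosen after seeing the data. Deviations of same-numbered arrays from their group means all correlated positively. The correlation was 0.02 between siRNA 7 and siRNA 9. It was 0.27 and 0.31 between siRNA 7 and negative arrays 1 and 2. For siRNA 9 and these it was 0.06 and 0.13. With 2 arrays per reagent, swapping the numbers only turns the sign, so this cannot settle whether replicates belong together. The numbers were not taken as pairs except in the block. The fits were tested on simulated data. R 4.3.3, limma 3.58.1, Python 3.11.15 and matplotlib 3.10.9 were used.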

Additional observations from a re-analysis of the deposited data

Results flagged for a closer look

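MT1H on the negative arrays stood out because negative array 1, at 9.65, lay far from the other 3, which ran from 9.25 to 9.28. MT1F on the TRIM44 siRNA arrays stood out because siRNA 7 array 1, at 11.08, lay below the other 3, which ran from 11.27 to 11.30. Groups of 4 arrays were examined 16 times, chance flags about 5% of groups, and no cause was tested.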

How the results depend on the processing

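The member median for TRIM44 siRNA was below 0 under all 16 alternatives (-0.19 to -0.10), as were those for siRNA 7 (-0.24 to -0.12) and siRNA 9 (-0.16 to -0.05), each nearest to 0 without negative array 1. For siRNA 7 minus siRNA 9 it ran from -0.11 without siRNA 7 array 2 to 0.06 without siRNA 7 array 1, and 0 members were called under any of the 16. With the replicate number as a block the TRIM44 siRNA median was -0.17, MT1M moved to -0.21 (to -0.14 for siRNA 7) and MT1H to -0.58, and the calls of SGK1, SLC39A9 and TRIM44 ended. TRIM44 itself had -0.88 there (adjusted p = 0.998), -0.81 after median centring and with all probe sets, where its call ended too, and -0.87 to -0.73 with 1 array left out, where it held only without siRNA 7 array 2. Counts changed more. Genes of the lists called for siRNA 9 were 1 with the upper 50% of probe sets, 0 with all probe sets, 4 with the trended prior, 9 with array weights, 0 with the replicate block and 1 with only the arrays compared, in place of 2, and 0 to 3 with 1 array left out. For siRNA 7 against siRNA 9 they were 0 with all probe sets, 2 with the trended prior, 3 with array weights and 0 with the replicate block, in place of 1, and 0 to 2 with 1 array left out. In limma these settings that called 0 had 4 to 12 list genes at an unadjusted p under 0.05. All probe sets called between the reagents were 703 with the upper 50%, 8 with all probe sets, 792 with the trended prior, 1063 with array weights and 807 with only the arrays compared, in place of 428. With 1 array left out they were 0 (either siRNA 9 array, with 1931 and 2003 at an unadjusted p under 0.05) to 1050 (negative array 2). Testing other probe sets or fewer arrays changes the adjustment by construction; the cause was otherwise not tested. The filter on level left out MT1M and SGK1. With it, SLC39A9 was the 1 list gene called for siRNA 9, and also the 1 called between the reagents.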

Other observations

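MT1P3, a metallothionein pseudogene outside the lists and chosen after its values were seen, had 8.37 and 8.55 with siRNA 7 and 8.60 and 8.40 with siRNA 9, against 8.87, 8.62, 8.71 and 8.79 with negative siRNA. Its siRNA arrays lay below all negative arrays, as held for 1.26% of all probe sets, with a log2 difference of -0.27 for TRIM44 siRNA. The gap was narrow, from 8.60 on siRNA 9 array 1 to 8.62 on negative array 2. Negative array 1 was its highest array, as for 10.2% of all probe sets. Since MT1P3 was picked by its values, nothing is read from these shares. The pseudogene has 1 probe set, which may take up signal of the active genes, and this was not tested.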
